A study of Mus musculus with 12 samples.

Results

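Blood coagulation genes and 2 protein-crosslinking transglutaminases were examined in mouse bone marrow-derived macrophages (BMMs). The 9 genes, out of 38887 genes in each deposited table, were taken by name. They comprise the transglutaminases Tgm2 and F13a1, the procoagulant genes F3, F5, F7 and F10, and the anticoagulant genes Thbd, Procr and Tfpi. Bone marrow cells of wild-type (WT) and IGF2BP2 knockout (KO) mice, 3 to 4 months old, were differentiated for 6 days with 50 ng/ml M-CSF. They were then left untreated (M0) or given 20 ng/ml IL-4 for 8 h (M2), with 3 libraries in each of the 4 groups and 12 in all. In the KO, loxP sites around exons 4 and 5 of Igf2bp2 (allele Igf2bp2tm1.1Thor) were recombined by a Cre expressed from the Lyz2 gene, which is active in myeloid cells. The controls came from the same litters and had no floxed Igf2bp2. In the study such controls may or may not have the Cre, and its presence in the WT mice sequenced here is not given in the sources used here. IGF2BP2 is an RNA-binding protein that acts on the stability and translation of bound mRNAs.

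Coagulation starts when tissue factor (F3), a membrane receptor, binds factor VII (F7), and the pair activates factor X (F10). With factor V (F5) as cofactor, active factor X turns prothrombin into thrombin, which makes fibrin, and factor XIII-A (F13a1) crosslinks the fibrin. Tissue factor pathway inhibitor (Tfpi) blocks the first steps, whereas thrombomodulin (Thbd) and the endothelial protein C receptor (Procr) turn thrombin towards activating protein C, an anticoagulant. Most plasma clotting factors are made in liver, but macrophages make several locally, and factor XIII-A and transglutaminase 2 (Tgm2) are widely used as markers of IL-4 treated macrophages, the latter in human and mouse cells.

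Each library held between 20011792 and 39632770 counts, and WT M2 libraries were the shallowest at 20011792 to 22744704. Igf2bp2 was measured over the whole gene at 76.5 to 118 CPM in WT M0 and 84.9 to 95.9 CPM in KO M0 (CPM, counts relative to the library's total, scaled between libraries). In the M2 state, WT libraries held 178 to 233 CPM and KO libraries 129 to 146 CPM. A count over the whole gene cannot show the loss of 2 exons, so it does not check the genotype labels. The 3 IL-4 response genes Chil3, Retnla and Mrc1 summed to 218 to 289 CPM in WT M0 and 132 to 157 CPM in KO M0. In M2 they summed to 2477 to 2754 CPM in WT and 2242 to 2470 CPM in KO. The sums of KO lay below those of WT without overlap in both states, and Mrc1 held most of each sum. Chil3 and Retnla overlapped between the genotypes in both states. In M2, Chil3 was at 13.6 to 29.1 CPM in WT and 22.9 to 29.2 in KO, and Retnla at 67.5 to 152 and 96.5 to 120. All 8 macrophage markers were present and summed to 5882 to 6412 CPM, while 4 liver-type genes (Alb, Ttr, F2, Fga) had 0 counts in every library. Fibroblast and stromal markers were low but uneven, at 31.5 to 62.0 CPM summed in WT and 8.52 to 31.9 CPM in KO. Per the study's legends the libraries of a group came from separate mice, while the labels do not name the animals or say whether an M0 and an M2 library shared one.

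Of the 9 genes, 8 passed the filter on low counts and were tested among 12846 genes with edgeR's quasi-likelihood test. F5 did not pass, and F3 passed only through the IL-4 groups, where it was higher, so its place among the tested genes already depended on that rise. The main pattern was a response to IL-4. With an adjusted p under 0.05 as the threshold for a call, 7 of the 8 tested genes were called in WT and 7 of 8 in KO, beside 50.0% and 52.8% of all tested genes. Leaving out F3, the count was 6 of 7 in each genotype. F10, F7, F3, Tgm2 and Tfpi rose in both genotypes, beside 24.9% of all tested genes called higher in WT and 26.8% in KO. Thbd and Procr fell in both, beside 25.1% and 26.0% called lower. The median log2 fold change of the 7 genes without F3 was 0.36 in WT and 0.28 in KO (0.61 and 0.60 with it), against -0.01 and 0.01 over all tested genes. The effect of the genotype was smaller, with F10 called in M0 and Thbd called in M2.

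**Figure D1:**
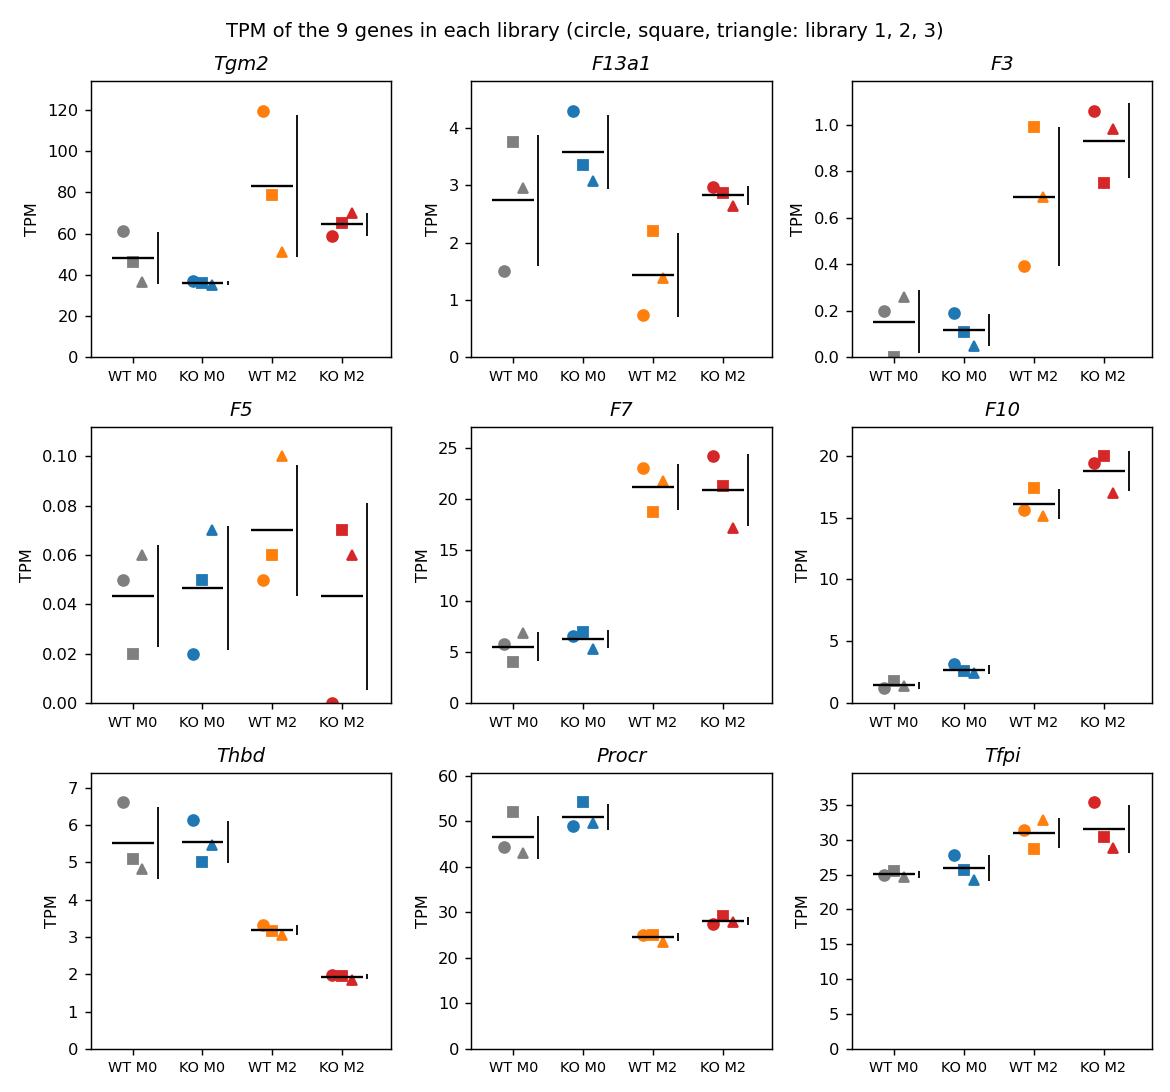
TPM (y axis, linear from 0) of each of the 9 genes in the 12 libraries, by group (x axis). Circles, squares and triangles are libraries 1, 2 and 3, the horizontal line is the mean and the vertical line the SD (n = 3). F10 lay at 1.19 to 3.15 TPM in the untreated libraries and at 15.1 to 20.0 TPM in the IL-4 libraries, while Thbd lay at 1.85 to 1.98 TPM in KO M2.

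F10 had the largest fold rise with IL-4 of the 8 tested genes in WT, whereas in KO the fitted rise of F3, a gene of very low counts, was larger. F10 encodes the zymogen of the protease that forms thrombin, and lies on chromosome 8 from 13037308 to 13056676 on the plus strand (GRCm38, GENCODE M21). F10 measured 1.39, 1.51 and 1.64 CPM in WT M0 libraries 1 to 3 and 17.2, 19.1 and 16.1 CPM in WT M2. In KO it measured 3.12, 2.60 and 2.49 CPM in M0 and 21.4, 20.9 and 18.4 CPM in M2. Every IL-4 library was above every untreated library, and every KO M0 library was above every WT M0 library. IL-4 raised F10 by a log2 fold change of 3.53 ± 0.12 (SE) in WT, an 11.6-fold rise (adjusted p = 1.555e-10), and by 2.89 ± 0.11 in KO, a 7.42-fold rise (adjusted p = 2.737e-10). Ordered from the highest fold change, F10 was number 94 of the 12846 genes in WT and number 145 in KO.

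F10 was also the only one of the 8 tested genes called between the genotypes in M0, where 9.78% of all tested genes were called. KO M0 was 1.80-fold above WT M0, a log2 fold change of 0.85 ± 0.14 (adjusted p = 0.00299). In M2 the log2 fold change was 0.21 ± 0.09, with an adjusted p of 0.231 and overlapping groups. The IL-4 response of F10 was lower in KO by 0.64 ± 0.17 on the log2 scale, which missed the threshold (adjusted p = 0.0578). When same-numbered M0 and M2 libraries were paired as a replicate block, this difference was -0.64 with an adjusted p of 0.029, and DESeq2 also called it (adjusted p = 0.046). The 7 neutrophil markers, with Ly6g at 0 counts in every library, also separated the genotypes in M0, at 6.66 to 17.0 CPM summed in WT and 4.34 to 4.74 CPM in KO. So did the sum of Chil3, Retnla and Mrc1, which was mostly Mrc1. Mast cell and basophil markers summed to 0.351 to 0.615 CPM in WT M0 and 0.159 to 0.221 in KO M0. All of these sums were lower in KO, whereas F10 was higher. The macrophage marker sum was higher in KO M0, at 6111 to 6266 CPM against 5882 to 6105 in WT M0. The part of these markers in the F10 difference was not tested.

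F7, the protease that tissue factor binds, is the neighbour of F10 on the same strand of chromosome 8 (13026034 to 13035809), with 1498 bases between the annotated genes. F7 measured 5.50, 3.88 and 7.05 CPM in WT M0 and 23.6, 19.3 and 22.4 CPM in WT M2. In KO it measured 6.39, 6.92 and 5.25 CPM in M0 and 26.3, 21.7 and 17.7 CPM in M2. The untreated and treated libraries did not overlap in either genotype, while WT and KO overlapped in both states. F7 rose 4.00-fold in WT (log2 2.0 ± 0.20, adjusted p = 2.75e-06) and 3.53-fold in KO (log2 1.82 ± 0.19, adjusted p = 3.604e-06). KO minus WT, these responses differed by -0.18 ± 0.27 (adjusted p = 0.776). KO against WT gave 0.19 ± 0.21 untreated and 0.00 ± 0.17 after IL-4 on the log2 scale, neither called.

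The proteins of F7 and F10 are serine proteases of one family. The 39 coding bases around the codon of the active-site serine (in capitals) are printed to show how alike the adjacent genes are at this site. They come from GENCODE M21 transcripts on GRCm38, chr8:13035110-13035148 in exon 8 of 8 of F7 and chr8:13055664-13055702 in exon 9 of 9 of F10, both on the plus strand.
F7: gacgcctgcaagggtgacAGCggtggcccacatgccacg
F10: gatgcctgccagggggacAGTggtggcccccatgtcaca
Of the 39 bases 32 were identical, and 11 of 13 codons stood for the same residue. All 108 deposited values of the 9 genes were whole within 0.005, although the counting tool can split reads between genes that share sequence.

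The genes beside the pair, looked up by position after the values of F7 and F10 were seen, are given as a description. All annotated protein-coding genes reaching into 150000 bases on either side of F10 were taken, and 7 of these 8 were tested, F7 and F10 included. Of the 5 others tested, 4 were called higher with IL-4 in WT and 3 in KO, beside 24.9% and 26.8% of all tested genes. Mcf2l, a guanine nucleotide exchange factor gene that ends just before F7, rose by 5.19 ± 0.12 on the log2 scale in WT and 4.55 ± 0.11 in KO. Pcid2 rose by 1.02 ± 0.06 and 1.15 ± 0.06, and Cul4a, a ubiquitin ligase scaffold, rose by 0.62 ± 0.04 in each genotype. The largest adjusted p among these 6 values was 1.361e-07. Lamp1, a lysosomal membrane protein, had 0.02 ± 0.04 in WT and 0.06 ± 0.04 in KO and was not called. Grtp1 was called in WT at 1.27 ± 0.30 (adjusted p = 0.00376) but not in KO at 0.10 ± 0.27 (adjusted p = 0.778), and the difference of -1.17 ± 0.41 was not called (adjusted p = 0.152). The responses of Mcf2l differed by -0.63 ± 0.17 (adjusted p = 0.0657), beside -0.64 ± 0.17 for F10, and neither was called by edgeR's quasi-likelihood test without pairing. Proz, the protein Z gene, lies directly after F10 and did not pass the filter, with mean counts of 0.333 to 2.0 in the groups.

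**Figure D2:**
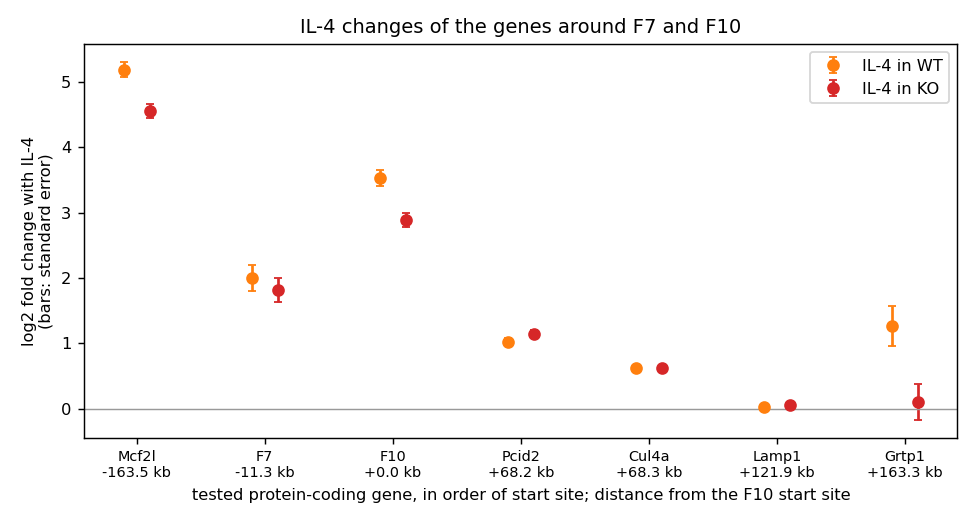
Log2 fold change with IL-4 (y axis, bars are standard errors, fit over 12 libraries) of the 7 tested protein-coding genes around F10, in order of start site with the distance to the F10 start site in kb (x axis). Mcf2l, F7, F10, Pcid2 and Cul4a lie above 0 in WT and KO, whereas Lamp1 lies at 0.02 and 0.06.

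The RefSeq promoter windows of the pair, of which the 250 bases before each start site are shown (GRCm38.p6, plus strand), lie at chr8:13025784-13026033 for F7 and chr8:13037058-13037307 for F10. Capitals mark the KLF-type core CACCC on either strand, the single motif searched for that occurred in these windows.
F7: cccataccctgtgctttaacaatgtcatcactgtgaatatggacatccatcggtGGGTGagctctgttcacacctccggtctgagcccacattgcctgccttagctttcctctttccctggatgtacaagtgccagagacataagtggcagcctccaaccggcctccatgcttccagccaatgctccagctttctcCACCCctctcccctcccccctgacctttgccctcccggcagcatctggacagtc
F10: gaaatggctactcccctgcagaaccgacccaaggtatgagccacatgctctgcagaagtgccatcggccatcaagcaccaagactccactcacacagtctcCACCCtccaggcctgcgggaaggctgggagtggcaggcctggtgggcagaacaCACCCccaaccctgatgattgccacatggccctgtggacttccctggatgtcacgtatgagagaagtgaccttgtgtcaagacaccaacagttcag
Windows of 300 bases were available for 7 of the 9 genes, 9 windows in all, and not for Tgm2 and Thbd. CACCC occurred in 8 of the 9 windows, and in 57.5% of all 32851 windows. IL-4 acts through the transcription factor STAT6, whose sites are built on TTC and GAA with 3 or 4 bases between them. TTCNNNNGAA was present in 1 of the 9 windows, the first of 2 windows of Tfpi, and in 6.95% of all windows. The second Tfpi window (chr2:84474175-84474424) did not hold it. TTCNNNGAA, present in 8.3% of all windows, and the EGR1-type core GCGTGGG, present in 5.04%, were in none of the 9. The first Tfpi window is shown with TTCNNNNGAA, which starts 13 bases before the start site, and CACCC in capitals (chr2:84476760-84477009, minus strand).
Tfpi: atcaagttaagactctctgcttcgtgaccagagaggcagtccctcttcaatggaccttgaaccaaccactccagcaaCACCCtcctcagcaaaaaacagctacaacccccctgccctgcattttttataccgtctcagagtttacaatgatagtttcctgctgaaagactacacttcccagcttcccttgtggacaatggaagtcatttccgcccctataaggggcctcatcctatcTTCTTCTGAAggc
These matches describe the letters of the windows and were not tested for binding.

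F3, the receptor that starts coagulation, was at the edge of detection. On chromosome 3 (121723537 to 121735048, plus strand) it collected 6, 0 and 7 counts in WT M0 and 5, 4 and 2 counts in KO M0. After IL-4, WT libraries had 9, 20 and 14 counts and KO libraries 31, 30 and 38. A count of 0 in WT M0 library 2 allows up to 0.103 CPM (3 counts of 29235641). Summed over a group, F3 stood at 0.0824 to 0.265 CPM in WT M0 and 0.494 to 0.920 in WT M2. In KO it stood at 0.0554 to 0.199 CPM in M0 and 0.767 to 1.15 in M2. These are exact 95% binomial intervals of the unscaled counts, which cover counting error only. The fitted log2 fold change with IL-4 was 2.21 ± 0.63 in WT (adjusted p = 0.0113) and 3.11 ± 0.60 in KO (adjusted p = 0.000758). In WT the call was lost without WT M2 library 2 (log2 1.86, adjusted p = 0.0594). The difference between the responses was 0.90 ± 0.94 (adjusted p = 0.669). F5, the cofactor of factor X on chromosome 1 (164151838 to 164220277), had 0 to 12 counts per library and no test. Its mean TPM was 0.0433 (WT) and 0.0467 (KO) in M0, and 0.07 (WT) and 0.0433 (KO) in M2.

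The anticoagulant genes moved apart. Thbd, the thrombin receptor that redirects thrombin to protein C, is a gene on chromosome 2 (148404466 to 148408188, minus strand). It measured 12.9, 10.2 and 10.1 CPM in WT M0 and 12.3, 10.2 and 11.1 CPM in KO M0. After IL-4 the WT libraries held 6.997, 6.65 and 6.44 CPM, and the KO libraries held 4.41, 4.09 and 3.90 CPM. The untreated genotypes overlapped, each IL-4 library was below each untreated library, and each KO M2 library was below each WT M2 library. IL-4 lowered Thbd 1.65-fold in WT (log2 -0.73 ± 0.11, adjusted p = 0.000177) and 2.71-fold in KO (log2 -1.44 ± 0.11, adjusted p = 3.512e-07).

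Thbd was the only tested member called between the genotypes in M2, where 2.68% of all tested genes were called. KO M2 was 1.63-fold below WT M2 (log2 -0.70 ± 0.12, adjusted p = 0.0157), whereas in M0 the log2 fold change was 0.01 ± 0.11 (adjusted p = 0.964). The IL-4 response itself differed between the genotypes by -0.71 ± 0.16 (adjusted p = 0.0334), beside 3.24% of all tested genes called for this difference, and within same-numbered libraries the fall was 0.61 to 0.89 on the log2 scale in WT and 1.32 to 1.51 in KO. Both calls depended on single libraries. In M2 the call was lost without WT M2 library 2 (adjusted p = 0.072), KO M2 library 2 (0.06225) or KO M2 library 3 (0.0814). It was also lost with limma on log2(TPM + 1) (log2 -0.51, adjusted p = 0.0598) and on log2(TPM + 0.1) (log2 -0.69, adjusted p = 0.0558). With limma on the posterior mean TPM it held (log2 -0.50, adjusted p = 0.0437). Dropping a library ended the call on the difference in 9 of 12 cases, with adjusted p-values of 0.0505 to 0.0917; the call held only without WT M0 library 1, KO M0 library 2 or KO M2 library 1. All 3 limma fits also lost it (adjusted p = 0.117 to 0.1432). Its log2 values in all 20 alternatives lay between -0.84 and -0.51. In M2, fibroblast and stromal markers summed to 34.3 to 62.0 CPM in WT and 9.66 to 28.0 in KO, platelet markers to 7.77 to 11.6 and 13.5 to 15.4, and neutrophil markers to 4.35 to 10.99 and 4.14 to 5.33. The first 2 of these sums and the sum of Chil3, Retnla and Mrc1 did not overlap between the genotypes, and their part in the Thbd difference was not tested.

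Procr, the receptor that presents protein C to thrombomodulin, lies on chromosome 2 (155751117 to 155755471, plus strand). It measured 34.8, 40.8 and 35.8 CPM in WT M0, and 36.3, 43.3 and 39.99 CPM in KO M0. After IL-4 the WT libraries held 21.4, 20.9 and 19.5 CPM and the KO libraries 21.5, 24.0 and 23.3 CPM. IL-4 lowered it by nearly equal factors, 1.81-fold in WT (log2 -0.85 ± 0.08, adjusted p = 2.412e-06) and 1.74-fold in KO (log2 -0.80 ± 0.08, adjusted p = 2.409e-06). The difference between the responses was 0.06 ± 0.11 (adjusted p = 0.841). KO M2 libraries all lay above WT M2 libraries, but the log2 fold change of 0.16 ± 0.08 was not called (adjusted p = 0.306).

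Tfpi, the inhibitor of the tissue factor complex, lies on chromosome 2 (84432855 to 84476775, minus strand) and was the one anticoagulant gene of the 3 that rose. It measured 25.1, 25.7 and 26.8 CPM in WT M0 and 32.8, 31.3 and 35.4 CPM in WT M2. In KO it measured 29.3, 27.2 and 26.1 CPM in M0 and 34.8, 33.9 and 31.7 CPM in M2. The rise was small and did not overlap, 1.28-fold in WT (log2 0.36 ± 0.06, adjusted p = 0.000477) and 1.22-fold in KO (log2 0.28 ± 0.06, adjusted p = 0.002). KO against WT, the log2 values were 0.09 ± 0.06 without and 0.01 ± 0.06 with IL-4, neither called.

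Thbd, Procr and Tfpi are also genes of endothelial cells. The 8 endothelial markers summed to 8.77 to 12.0 CPM in the untreated groups and 4.90 to 7.37 CPM in the IL-4 groups, most of it Kdr at 3.88 to 9.20 CPM. Tek, Emcn, Tie1, Robo4 and Cldn5 stayed at or below 0.11 CPM in every library. Vwf, a gene of endothelial cells and platelets that was not on this list, went the other way, from a mean of 39.8 to 102 CPM in WT and from 43.6 to 103 CPM in KO. In bulk RNA, fewer cells of one type and less RNA per cell cannot be told apart, and the part of such cells in the falls of Thbd and Procr was not tested.

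Summed over the members of each role, procoagulant transcripts came closer to anticoagulant ones with IL-4, which is given as a description without a test. The procoagulant sum was nearly all F7 and F10. Other expressed genes of these roles were left out, so the ratios hold for the members only. These were the anticoagulants Pros1 (group means of 25.3 to 30.9 TPM) and Anxa5 (759 to 961 TPM), and the procoagulant gene Vwf (22.2 to 63.9 TPM). TPM, which accounts for gene length, gave the procoagulant genes F3, F5, F7 and F10 together 7.18 ± 1.4 (SD, n = 3) in WT M0 and 9.12 ± 1.17 in KO M0. With IL-4 the sums were 38.0 ± 0.99 for WT and 40.6 ± 4.88 for KO. The anticoagulant genes Thbd, Procr and Tfpi together gave 76.99 ± 5.16, 82.4 ± 2.84, 58.7 ± 1.56 and 61.6 ± 3.19 TPM in the same order. The anticoagulant sum was thus 8.45 to 14.3 times the procoagulant sum in the WT M0 libraries and 8.41 to 10.2 times in KO M0. In M2 it was 1.53 to 1.58 times in WT and 1.45 to 1.66 times in KO. The ranges of M0 and M2 did not touch, and those of WT and KO overlapped in both states.

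**Figure D3:**
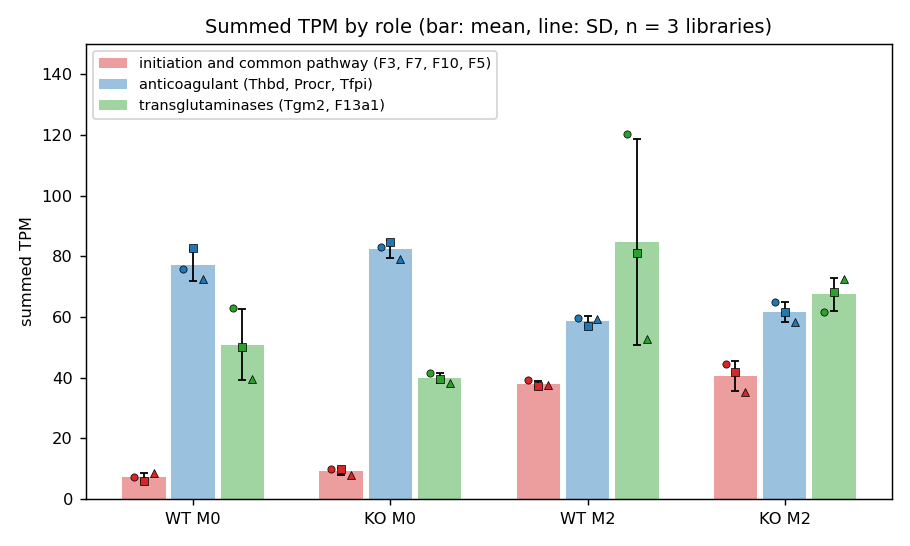
Summed TPM (y axis, from 0) of the procoagulant, anticoagulant and transglutaminase genes among the 9 members, in the 4 groups (x axis). Bars are means, lines are SD and points are the 3 libraries. The procoagulant mean is 7.18 TPM in WT M0 against 38.0 in WT M2 and 9.12 against 40.6 in KO, while the anticoagulant mean is 76.99 against 58.7 in WT and 82.4 against 61.6 in KO.

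Tgm2, the ubiquitous transglutaminase that crosslinks proteins through glutamine and lysine side chains, was the most abundant of the 9 genes after IL-4. It lies on chromosome 2 (158116402 to 158146436, minus strand). Tgm2 measured 116, 89.0 and 74.3 CPM in WT M0 and 243, 161 and 104 CPM in WT M2, with library 1 highest and library 3 lowest in both states. In KO it measured 72.0, 69.2 and 69.3 CPM in M0 and 122, 132 and 143 CPM in M2. Tgm2 rose 1.82-fold in WT (log2 0.86 ± 0.23, adjusted p = 0.00799) although the WT groups overlapped, and 1.88-fold in KO without overlap (log2 0.91 ± 0.23, adjusted p = 0.00511). Without WT M2 library 1 the rise in WT was 0.51 on the log2 scale (adjusted p = 0.0411). Within same-numbered libraries it rose in 6 of 6, from 1.399-fold in WT 3 to 2.09-fold in WT 1.

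Between the genotypes Tgm2 was not called. Its log2 fold change in KO was -0.41 ± 0.23 in M0 (adjusted p = 0.296) and -0.36 ± 0.23 in M2 (adjusted p = 0.411). Both values moved with single WT libraries. In M2 the log2 fold change was -0.00077 without WT M2 library 1 and -0.61 without WT M2 library 3, and in M0 it was -0.22 without WT M0 library 1. KO M0 libraries all lay below WT M0 libraries in CPM, whereas in TPM the groups overlapped, with WT M0 library 3 at 36.6 TPM and KO M0 library 1 at 37.2 TPM. Fibroblasts also express Tgm2, and the fibroblast and stromal markers summed to 55.6, 31.5 and 43.0 CPM in WT M0 libraries 1 to 3 and 62.0, 34.3 and 40.6 CPM in WT M2. In KO they summed to 30.2, 31.9 and 8.52 CPM in M0 and 21.1, 28.0 and 9.66 CPM in M2, and their part in the spread of Tgm2 was not tested. Tgm2 also overlaps Rprd1b on the opposite strand (615 to 1384 counts per library). The library kit keeps strand, and whether counting used it is not given in the sources used here.

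F13a1, the factor XIII subunit that crosslinks fibrin and a transglutaminase found inside macrophages and platelets, spans 183067 bases of chromosome 13 (36867178 to 37050244, minus strand). It measured 3.07, 7.82 and 6.47 CPM in WT M0 and 1.59, 4.85 and 3.02 CPM in WT M2. In KO it measured 9.00, 7.11 and 6.55 CPM in M0 and 6.89, 6.24 and 5.81 CPM in M2. Library 1 was the lowest in WT in both states, where for Tgm2 it was the highest, and all KO M2 libraries lay above all WT M2 libraries. The IL-4 change was -0.89 ± 0.36 in WT (adjusted p = 0.0576) and -0.26 ± 0.32 in KO (adjusted p = 0.531), neither called by edgeR's quasi-likelihood test. DESeq2 called the change in WT (log2 -0.88, adjusted p = 0.0336), and so did edgeR with no filter on low counts (log2 -0.90, adjusted p = 0.0269).

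The spread of F13a1 between WT libraries was shared by the 2 states. CPM was lower with IL-4 in 3 of 3 WT pairs, at 0.518, 0.62 and 0.466 of the untreated level, and in 3 of 3 KO pairs, at 0.766, 0.877 and 0.887. With same-numbered libraries as a replicate block, the fall in WT was called (log2 -0.89, adjusted p = 0.000173), as was the difference between the responses (log2 0.64, adjusted p = 0.0374, against 0.63 ± 0.48 and 0.54 without the block). Without the block, the change in WT moved both ways when a library was left out. It was -1.197 (adjusted p = 0.00604) without WT M0 library 1 and -1.34 (adjusted p = 0.0143) without WT M2 library 2, but -0.59 (adjusted p = 0.235) without WT M0 library 2 and -0.55 (adjusted p = 0.218) without WT M2 library 1. KO against WT in M2 gave 1.01 ± 0.36 (adjusted p = 0.143), and in M0 0.38 ± 0.32 (adjusted p = 0.503). Platelets hold F13a1 too: the 7 megakaryocyte and platelet markers summed to 6.21 to 11.6 CPM in WT and 9.15 to 15.4 CPM in KO over both states. In M2 the sums were 7.77 to 11.6 CPM in WT and 13.5 to 15.4 CPM in KO, without overlap. Nearly all was Ppbp and Treml1, with Gp9 and Gp6 at 0 counts in every library. Their part in the F13a1 values was not tested.

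Tgm2 and F13a1 share the active-site cysteine of transglutaminases. The 39 coding bases around its codon (in capitals) are printed to show how alike the pair of transglutaminases is at this site. They lie at chr2:158131341-158131379 in exon 6 of 13 of Tgm2 and chr13:36946453-36946491 in exon 7 of 15 of F13a1, both on the minus strand of GRCm38 (GENCODE M21 transcripts).
Tgm2: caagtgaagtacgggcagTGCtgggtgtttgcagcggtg
F13a1: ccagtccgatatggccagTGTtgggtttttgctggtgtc
Of the 39 bases 26 were identical, and 10 of 13 codons stood for the same residue.

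**Figure D4:**
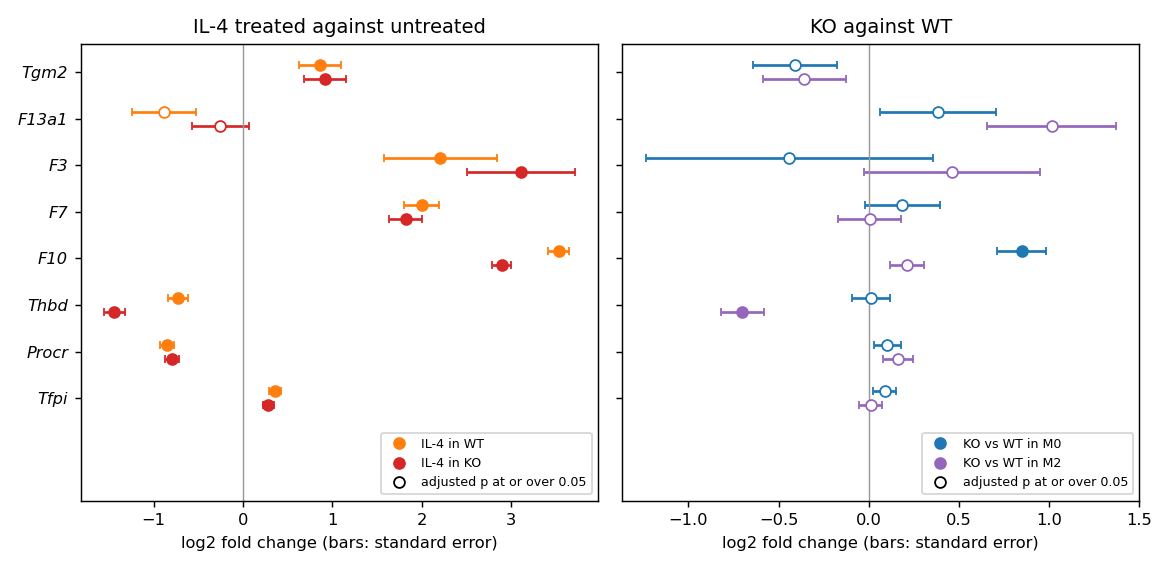
Log2 fold change (x axis, bars are standard errors) of the 8 tested genes (y axis) with IL-4 in WT and KO on the left, and in KO against WT in M0 and M2 on the right. Filled points passed an adjusted p of 0.05. F10 lies at 3.53 and 2.89 on the left and at 0.85 in M0 on the right, and Thbd lies at -0.73 and -1.44 on the left and at -0.70 in M2 on the right.

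Counted by non-overlap of CPM, 2 of the 8 tested genes separated KO from WT in M0 (F10 above, Tgm2 below), beside 31.1% of all tested genes. In M2 the count was 3 (F13a1 and Procr above, Thbd below), beside 24.8%. IL-4 separated 6 of 8 in WT (5 of 7 without F3), beside 55.2%, and 7 of 8 in KO (6 of 7 without F3), beside 63.4%. F13a1 overlapped in both genotypes and Tgm2 overlapped in WT.

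The order of levels per gene length was not the same in M0 and M2. In WT M0 the mean TPM fell from Tgm2 (48.1 ± 12.5 SD) and Procr (46.5 ± 4.82), whose ranges overlapped, to Tfpi (25.0 ± 0.46), F7 (5.53 ± 1.45), Thbd (5.51 ± 0.96), F13a1 (2.74 ± 1.15), F10 (1.45 ± 0.29), F3 (0.153 ± 0.14) and F5. F7 and Thbd, F13a1 and F10, and F3 and F5 also overlapped. In WT M2 Tgm2 (83.3 ± 34.5) was followed by Tfpi (31.0 ± 2.12), Procr (24.5 ± 0.86), F7 (21.2 ± 2.22) and F10 (16.1 ± 1.22), with only F13a1 (1.44 ± 0.74) and F3 (0.69 ± 0.30) overlapping among neighbours. F10 thus lay below Thbd in M0 and above it (3.18 ± 0.14) in M2. In KO M0 Procr led (51.0 ± 2.83), before Tgm2 (36.2 ± 0.98) and Tfpi (25.9 ± 1.87). In KO M2 Tgm2 led (64.6 ± 5.66), Tfpi (31.5 ± 3.45) and Procr (28.2 ± 0.89) overlapped, and so did F7 (20.8 ± 3.51) and F10 (18.8 ± 1.60). Thbd (1.93 ± 0.07) lay below F13a1 (2.82 ± 0.17) in KO M2 alone of the 4 groups, without overlap.

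The patterns most like each gene were sought by Pearson's r of log2 CPM over the 12 libraries, among genes of at least 5 CPM on average. The points share 4 groups, so for genes called for IL-4 r mostly follows that response, and it is given as a description. F13a1 was called for IL-4 in neither genotype by edgeR, and its r with F3, F7 and F10 was -0.268, -0.424 and -0.315. For F10 the closest were Klf9 (0.997), Niban2 (0.997) and Nrros (0.996), and for F7 Rnf166 (0.988), Il11ra1 (0.987) and Abhd11 (0.985). For Thbd they were Slf1 (0.985), Mcm4 (0.985) and Gtf2ird1 (0.984), for Procr Akr1b8 (0.986), Il10ra (0.984) and Acsbg1 (0.984), and for Tfpi Ctdnep1 (0.979), Kdsr (0.974) and Tm2d2 (0.973). For Tgm2 the closest were Pfkfb3 (0.958), Fam120b (0.951) and Ddx21 (0.949), for F3 Ube2v1 (0.939), Vps25 (0.938) and Tspan31 (0.935), and for F13a1 Bst1 (0.889), Eif1ax (0.845) and Il2rg (0.836). Among the 9 genes, F7 and F10 had r = 0.968, and Tgm2 and F13a1 had r = -0.706.

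The remaining genes of coagulation and crosslinking set the limits of what these macrophages carried. The lists held 57 genes found in the tables, members included, of which 25 did not pass the filter and 12 had 0 counts in every library. The latter included prothrombin (F2), the 3 fibrinogen chains (Fga, Fgb, Fgg), protein C (Proc), F11 and F13b, the carrier subunit of factor XIII. Of the 24 tested genes that are not among the 9, 13 rose and 5 fell with IL-4 in WT, and 13 rose and 6 fell in KO, beside 24.9% higher and 25.1% lower of all tested genes in WT and 26.8% and 26.0% in KO. F2r, F2rl3 and Stab2 passed the filter on low counts through the IL-4 libraries alone, so that, as for F3, their rise was part of what let them be tested. Leaving them out, 10 of 21 rose and 5 fell in WT, and 10 rose and 6 fell in KO.

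Of the 4 thrombin and protease receptors, F2rl2 was the one whose test did not depend on IL-4 for passing the filter, and F2rl1 (PAR2) was not tested. F2rl2 (PAR3) rose 4.44-fold in WT and 3.55-fold in KO. F2r, the main thrombin receptor (PAR1), went from 0.312 to 4.72 CPM in WT (log2 3.87 ± 0.29, adjusted p = 1.983e-07) and from 0.245 to 4.196 CPM in KO (log2 4.11 ± 0.29, adjusted p = 1.148e-07). F2rl3 (PAR4) stayed below 0.5 CPM on average, with log2 fold changes of 3.21 ± 0.75 and 2.68 ± 0.63.

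Adhesion partners and crosslinking substrates split, with 5 of 10 rising and 4 falling in each genotype (4 and 4 of 9 without Stab2), beside 24.9% higher and 25.1% lower of all tested genes in WT and 26.8% and 26.0% in KO. Itgb3, an integrin subunit that binds fibrinogen, rose from 1.51 to 45.0 CPM in WT (log2 4.89 ± 0.11) and from 0.711 to 40.7 CPM in KO (log2 5.81 ± 0.12). It was lower in KO M0 (log2 -1.07 ± 0.17, adjusted p = 0.00311), and its IL-4 response was larger in KO (0.93 ± 0.19, adjusted p = 0.0218), though not called without KO M0 library 1 (0.0645) or 2 (0.0652). With limma, the M0 difference was called on log2(TPM + 0.1) (-0.84, adjusted p = 0.00809) and not on log2(TPM + 1) (-0.27, adjusted p = 0.0927), its mean in M0 being 0.48 TPM in WT and 0.223 TPM in KO. The difference between the responses was called on neither (0.68 and 0.12, adjusted p = 0.147 and 0.696). Sdc4, a heparan sulfate proteoglycan, rose 4.64-fold and 5.34-fold, and Fn1, fibronectin, a substrate of both transglutaminases, rose 2.55-fold and 2.99-fold. Stab2, an endocytic receptor, had log2 fold changes of 1.91 ± 0.43 and 2.48 ± 0.43 at under 1 CPM, and in KO limma called it on log2(TPM + 0.1) (1.57, adjusted p = 0.0089) but not on log2(TPM + 1) (0.35, adjusted p = 0.0968). Spp1, osteopontin, also a transglutaminase substrate, was lower in KO M0 (log2 -0.32 ± 0.08, adjusted p = 0.0323). This call was lost without WT M0 library 2 or 3 or KO M0 library 1 or 2 (adjusted p = 0.073 to 0.1225). It was also lost with only the 6 libraries of the comparison (adjusted p = 0.0659).

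Among other factors, Vwf, the carrier of factor VIII, rose 2.57-fold in WT and 2.36-fold in KO, and Tgm1 rose 2.23-fold and 2.96-fold from 0.343 and 0.359 CPM. F9, the remaining tested procoagulant gene, was not called (log2 0.00 in WT, -0.33 in KO). Pros1, the cofactor of protein C, was not called either (log2 -0.09 and -0.03), while Anxa5 fell by 0.24 and 0.26 on the log2 scale. Factors VII and X need gamma-carboxylation and propeptide cleavage. Of the 6 genes of that step and of factor V transport, 3 rose and none fell in WT, and 3 rose and 1 fell in KO, which is near the 50.0% and 52.8% of all tested genes called in either direction. Vkorc1, which recycles vitamin K, rose 1.32-fold and 1.48-fold, whereas the carboxylase Ggcx was not called. Furin, a propeptide protease, rose 1.58-fold in WT and 2.10-fold in KO, and its response differed between the genotypes (0.41 ± 0.09, adjusted p = 0.026), a call lost in 9 of 20 alternatives (6 left-out libraries and 3 limma fits, adjusted p up to 0.152). Of these 24 genes, edgeR called Itgb3 and Spp1 between the genotypes in M0, beside 9.78% of all tested genes, and DESeq2 called 4. In M2 edgeR called 0 of the 24 (3 had an unadjusted p under 0.05), beside 2.68% of all tested genes, and DESeq2 called 2, Furin and Vkorc1l1.

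**Figure D5:**
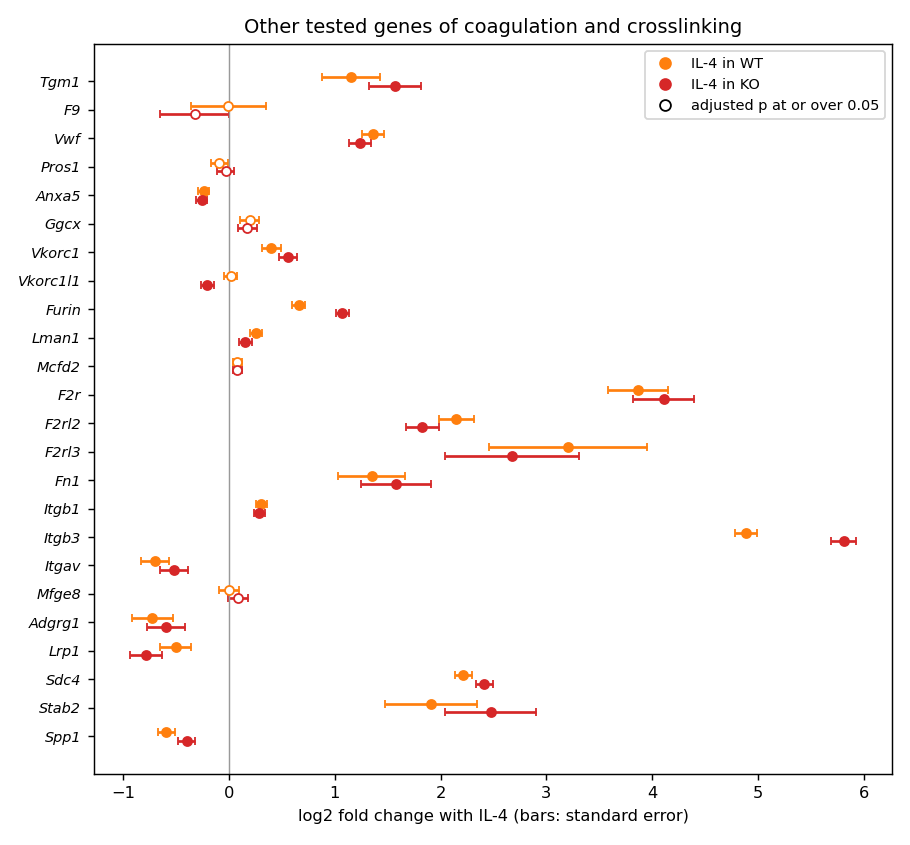
Log2 fold change with IL-4 (x axis, bars are standard errors) in WT and KO of the 24 tested genes of coagulation and crosslinking that are not among the 9 (y axis). Filled points passed an adjusted p of 0.05. Itgb3 lies at 4.89 and 5.81 and F2r at 3.87 and 4.11, and Spp1, Lrp1, Itgav and Adgrg1 lie below 0 in both genotypes.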

How the data were processed

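BMM poly(A) RNA was sequenced in 12 libraries. Per the submitters' notes and the study's methods, reads were checked with FastQC 0.11.2, processed with Grape-nf on GRCm38/mm10, and compared with DESeq2 1.40.2. The authors deposited for each library expected counts, meaning an estimated count of reads per gene without normalization. They also deposited TPM, as a maximum-likelihood and a posterior mean estimate. Their tables of fold changes and p-values were not used, apart from gene symbols. The counter's version is not given in the sources used here.

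Symbols came from the authors' table for 21000 genes and from a gene name table for others (37570 of 38887 in all). Expected counts were rounded and tested with edgeR 4.0.16 (R 4.3.3; filterByExpr, TMM, quasi-likelihood, 1 fit of 12 libraries, Benjamini-Hochberg over 12846 genes, with 8 residual degrees of freedom). SEs are the log2 fold change divided by the root of F. Alternatives used DESeq2 1.42.0, limma 3.58.1 on log2(TPM + 1), other filters and left-out libraries. The scripts were tested on simulated data.

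The 9 genes, the lists and the markers were chosen with earlier results of these data known. All 9 were named in each comparison. List genes were named when called between genotypes, or for IL-4 in both genotypes with a log2 fold change of at least 1, and some others to complete a group after their values were seen. Same-numbered libraries (WT1 and WT1_IL4) deviated together between M0 and M2 (r 0.103 to 0.364 in each of 6 pairs). For IL-4 they were paired only in the replicate block, an alternative, and in the changes within same-numbered libraries. The edgeR fit behind the calls did not pair them. Counts of 0 were bounded at 3 counts, and 95% intervals were exact. Some items first placed on the marker lists are not reported here.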

Additional observations from a re-analysis of the deposited data

Results flagged for a closer look

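The IL-4 response differed between the genotypes by a test of the difference itself (edgeR's quasi-likelihood test, interaction term) for 3 genes. Thbd fell further in KO, by -0.71 ± 0.16 on the log2 scale (adjusted p = 0.0334), and the fall was larger in each of the 3 KO pairs of libraries than in each of the 3 WT pairs. Its adjusted p-values over 20 alternatives were 0.00691 to 0.143, and the call was lost in 12 of them. Itgb3 rose further in KO, by 0.93 ± 0.19 (adjusted p = 0.0218), from a lower untreated level and with adjusted p-values of 0.00596 to 0.696 over its 20 alternatives. Furin rose further in KO, by 0.41 ± 0.09 (adjusted p = 0.026), with adjusted p-values of 0.00103 to 0.152 over its 20 alternatives. Leaving out WT M0 library 2, KO M0 library 1 or 3, WT M2 library 2 or KO M2 library 2 or 3 ended the Furin call (adjusted p = 0.0573 to 0.0821). Groups of 3 libraries were too small for a check of single libraries that stand apart.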

How the results depend on the processing

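Each fit was repeated with other scaling, filters, tools, units and libraries. Of 962 alternative values for the named genes, 913 kept their side of the threshold (894 also their direction, while 19 values of 8 results called in neither fit turned sign), 41 lost the call, 8 gained it and no call changed sign; the causes were not tested. The IL-4 counts of genes called (6428 in WT, 6784 in KO) held within 1.5 times, with 5606 to 6182 and 6034 to 6367 when a library was left out. Between genotypes in M0, 1256 genes were called, and 752, 700 and 755 with limma on log2(TPM + 1), log2(TPM + 0.1) and log2(posterior mean TPM + 1). In M2 it was 344, against 718 with DESeq2, 70, 57 and 200 with the same limma fits and 165 with only the 6 libraries. For the difference between the responses it was 416, against 810 with DESeq2 and 113, 113 and 163 with limma. Leaving out a library gave 461 to 1461 in M0, 25 to 298 in M2 and 183 to 643 for the difference. Counts moved over 1.5 times in M0 without WT library 2 (461) or KO library 1 (745), 2 (528) or 3 (563), in M2 without WT library 1 (185) or 2 (34) or KO library 2 (34) or 3 (25), and for the difference without WT M0 library 1 (643) or 2 (183), KO M0 library 1 (212), 2 (210) or 3 (201), WT M2 library 2 (193) or KO M2 library 2 (267) or 3 (194).

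Of the 8 tested members, 1 was called in M2, and 0 with limma on log2(TPM + 1) and log2(TPM + 0.1) and in 3 leave-out fits (0 to 1). For the difference 1 was called, with 2 by DESeq2, 0 in the 3 limma fits, and 0 to 1 without a library. IL-4 called 7 to 8 in WT and 7 in KO without a library, and 1 in M0. In TPM 1 member, not 2, had groups that did not overlap in M0. Of 8 neighbours in the order of TPM, 4 were apart in WT M0 (4 to 6 without a library), 5 in KO M0 (5 to 8), 7 in WT M2 (7 to 8) and 6 in KO M2 (6 to 8).

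Pairing same-numbered libraries as a replicate block called 1003 genes for the difference in place of 416, and 3 members (Thbd, F10, F13a1) in place of 1. It also called F13a1 for IL-4 in WT and changed no other member's call. Between the genotypes, equally numbered libraries did not deviate together (r -0.0684 to 0.0403), so that number pairs nothing between genotypes, and a block on it changed no member's call there. Counts under about 10 a library limit F3 and F5.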
